A study of Homo sapiens with 6 samples.

Results

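The genes described here are the transcriptional coactivators YAP1 and WWTR1 (TAZ), their DNA-binding partners TEAD1 and TEAD4, the kinase LATS2, and the reported target genes CCN1, CCN2, ANKRD1 and AMOTL2, together with AXL-AS. They were chosen by name, as probe sets whose gene symbol in the array's probe table was one of these 10 symbols or its former symbol (CYR61 for CCN1, CTGF for CCN2). The probe table held 20 such probe sets for 9 of the 10 symbols. No probe set carried the symbol AXL-AS, and that transcript was not analysed here. For each gene the probe set with the highest mean over the 6 arrays was used, which gave 9 of the 19775 genes on the array, and 8 of these were among the 14513 genes bright enough to be tested.

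In the Hippo pathway the kinases LATS1 and LATS2 phosphorylate YAP1 and WWTR1, which holds both proteins out of the nucleus and marks them for degradation. Unphosphorylated YAP1 and WWTR1 enter the nucleus, bind TEAD factors and switch on genes for secreted matrix proteins such as CCN1 and CCN2, and also for LATS2 and AMOTL2, which restrain the pathway in turn. Cell density, adhesion and serum lipids all act on this switch in cultured cells, and in glioma cells YAP1 and WWTR1 are known for their link to the mesenchymal state. The arrays measured RNA and carry no information on phosphorylation or location of the proteins.

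Total RNA of U87MG cells, a human glioma line, and of its derivatives was measured on 6 single-colour arrays, 2 in each of 3 groups. U87MGR, the highly invasive derivative, was represented by arrays titled U87MGR2 and U87MGR3, and U87MGL, the non-invasive derivative, by arrays titled U87MGL2 and U87MGL3. Whether these numbers mark separate sublines is not said in the labels. Both derivatives had gone through 4 rounds of injection into the left striatum of 6-week-old BALB/c nu/nu nude mice, dissociation of the tumour-bearing brain and return to culture. U87MG was the parental line from ATCC. All cells were grown in serum-containing DMEM, and the labels name no engineered allele or drug in any group. Since both derivatives were passaged in mouse brain, the passage itself and the selection for invasive or non-invasive cells cannot be told apart in a comparison with U87MG. The titles call the arrays biological replicates without saying how they were derived, so p-values measure only the spread between these samples. In bulk RNA of this kind, fewer cells of a type and less RNA per cell cannot be told apart.

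The 45 spiked-in control probe sets put the arrays into 3 groups that cut across the lines: U87MGR replicate 1 with both U87MGL arrays, U87MGR replicate 2 with U87MG replicate 1, and U87MG replicate 2 alone. Distances between arrays, the square root of the summed squared log2 differences over these probe sets, were 0.900 to 1.44 within a group. Between groups they were 5.59 to 8.84. What sets these groups apart was not tested, and for the YAP/TEAD genes values between arrays of the same spike-in group are given beside the results. Such pairs exist between U87MGR replicate 1 and the U87MGL arrays and between U87MGR replicate 2 and U87MG replicate 1, and none joins U87MGL to U87MG. From a list of glioma and mesenchymal glioma markers, VIM and CD44 were bright in all lines. Their mean log2 signals were 14.44 and 13.17 in U87MGR, 14.45 and 13.30 in U87MGL, and 14.37 and 13.01 in U87MG. The glial markers GFAP, OLIG2 and SOX2 lay just above the signal filter of 4.73, at group means of 4.85 to 5.40, and S100B lay below it at 3.23 to 3.35. No tested marker of microglia (3), endothelium (4), neurons (5) or oligodendrocytes (1) was called in any comparison. Of 4 pericyte and fibroblast markers, PDGFRB was called lower against U87MG, with means of 7.45 and 7.84 in U87MGR and U87MGL, against 8.80 in the parental line. CHI3L1, from the same list as VIM and CD44, was the only call among its 7 tested markers. It was lower against U87MG, with means of 10.28 and 9.20 in U87MGR and U87MGL, against 13.33. The part of the PDGFRB and CHI3L1 shifts in the values below was not tested.

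Of the 8 tested genes, only AMOTL2 was called higher against parental U87MG, by 1.88-fold in U87MGR and 2.03-fold in U87MGL. These calls held in 7 and 8 of 16 alternative fits. CCN1 and CCN2 had higher mean signals in both derivatives, but their size and their calls depended on which U87MG array was kept, since in U87MG replicate 2 both genes were far dimmer than in U87MG replicate 1. WWTR1 had its lowest signals on the U87MGR arrays, YAP1 its highest on the U87MGL arrays, and neither difference passed the adjusted test. TEAD1, TEAD4 and LATS2 had higher group means in both derivatives than in U87MG and were not called. ANKRD1 stayed below the signal filter in every line.

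A gene was called at a limma p-value under 0.05 after Benjamini-Hochberg adjustment over all 14513 genes. Between U87MGR and U87MGL, 0 of the 8 genes were called higher and 0 lower by limma, against 0.158% of all tested genes in either direction (0.0413% higher and 0.117% lower). Taking p under 0.05 without adjustment, the same comparison had 0 genes higher and 2 lower, YAP1 and WWTR1, against 8.85% of all genes (3.91% higher and 4.94% lower). Between U87MGR and U87MG, 1 gene was called higher and 0 lower, against 3.30% of all genes in either direction (1.86% higher and 1.44% lower). Without adjustment 4 were higher and 1 lower, against 20.8% of all genes (11.0% higher and 9.78% lower). Between U87MGL and U87MG, again 1 gene was called higher and 0 lower, against 4.82% of all genes in either direction (3.02% higher and 1.80% lower). Without adjustment 3 were higher and 0 lower, against 23.3% of all genes (13.2% higher and 10.1% lower). The comparisons with U87MG share its 2 arrays, so the similar values of the derivatives are not independent of each other.

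The median log2 fold change of the 8 genes was -0.09 between the derivatives, 0.50 for U87MGR against the parental line and 0.44 for U87MGL against it. Over all tested genes the same medians were 0.00, -0.01 and -0.02. Arrays that do not overlap are common when each group has only 2. Both U87MGR arrays lay above both U87MGL arrays for 0 of the 8 genes and below them for 2, against 46.6% of all genes separated in either direction (23.3% above and 23.3% below). Both U87MGR arrays lay above both U87MG arrays for 5 of the 8 genes and below for 1, against 48.4% of all genes (24.2% above and 24.2% below). Both U87MGL arrays lay above both U87MG arrays for 7 of the 8 genes and below for 0, against 56.4% of all genes (28.1% above and 28.3% below). WWTR1 was the gene of the 8 that overlapped in that last comparison.

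**Figure D1:**
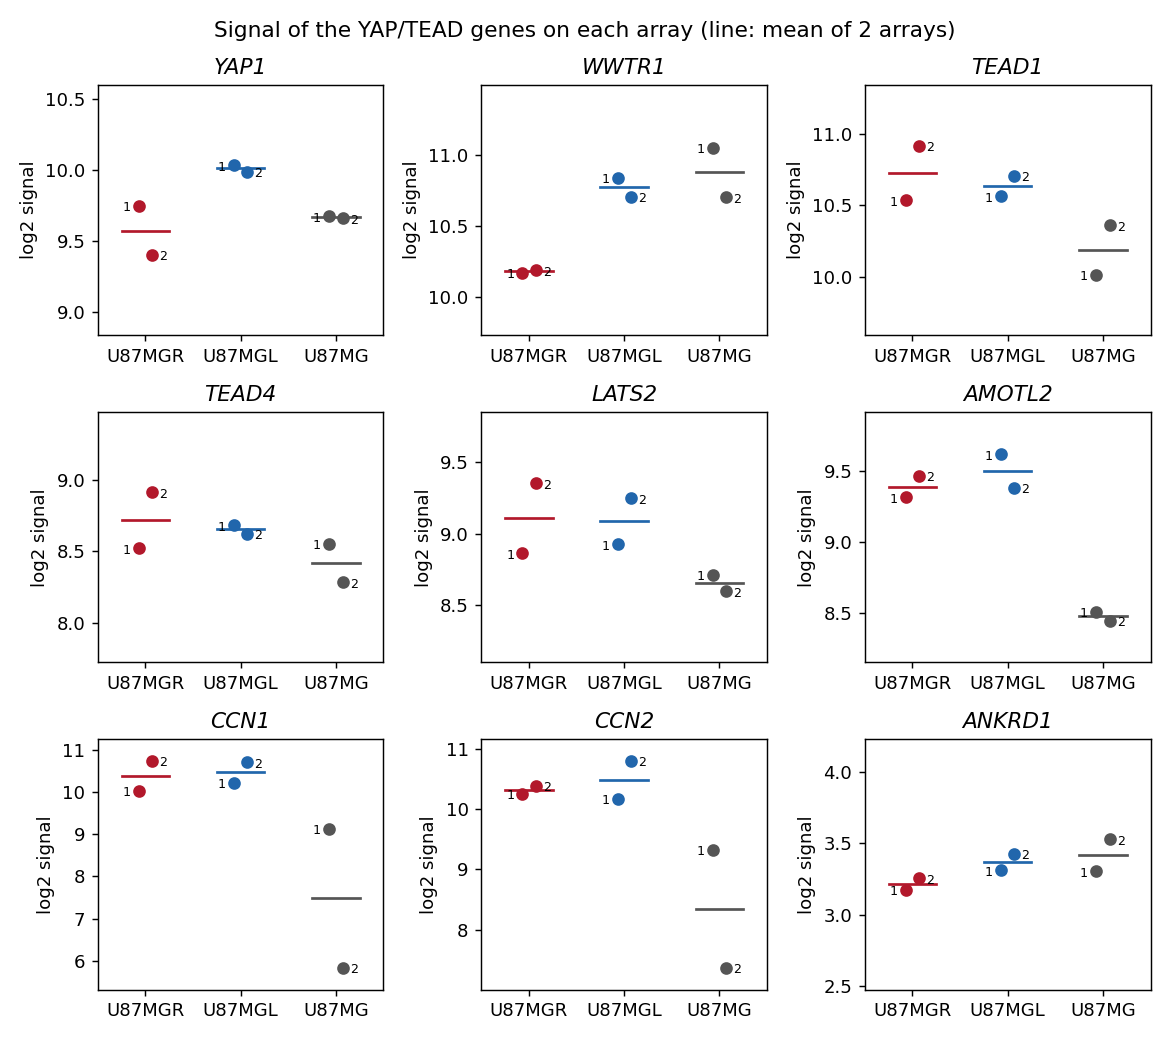
The log2 signal of each YAP/TEAD gene is plotted on every array, with U87MGR, U87MGL and U87MG from left to right on the horizontal axis, 1 point per array labelled with its replicate number, and a line at the group mean. The AMOTL2 points of both derivatives lie between 9.31 and 9.62, above the U87MG points at 8.50 and 8.45, while U87MG replicate 2 stands far below all others for CCN1 and CCN2.

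YAP1, a coactivator at the end of the Hippo cascade, had log2 signals of 9.75 and 9.40 in U87MGR, 10.03 and 9.99 in U87MGL, and 9.67 and 9.66 in U87MG. The U87MGL arrays were the highest, and the U87MGR arrays lay on either side of the U87MG arrays. U87MGR against U87MGL gave a log2 fold change of -0.44 (SE 0.17, 95% interval -0.84 to -0.03), with a limma p of 0.0377 that became 0.533 after adjustment. U87MGL against U87MG gave 0.34 (95% interval -0.06 to 0.75, limma adjusted p = 0.277). U87MGR against U87MG gave -0.09 (95% interval -0.50 to 0.31, limma adjusted p = 0.807). The order of the means was therefore U87MGL, U87MG and U87MGR, and the last 2 of these did not differ beyond their spread. All 3 probe sets of YAP1 gave values below 0 for U87MGR against U87MGL, between -0.44 and -0.04, whereas for U87MGL against U87MG they lay on both sides of 0, between -0.14 and 0.34. The mean of the 3 gave -0.24 for U87MGR against U87MGL and 0.09 for U87MGL against U87MG. On the brightest probe set the difference between the derivatives was -0.26 without U87MGR replicate 2, which leaves only arrays of 1 spike-in group, and -0.61 without U87MGR replicate 1. Within a spike-in group, U87MGR against U87MG gave -0.27.

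WWTR1, the close relative of YAP1 also called TAZ, had log2 signals of 10.17 and 10.19 in U87MGR, 10.84 and 10.71 in U87MGL, and 11.05 and 10.70 in U87MG. Both U87MGR arrays lay below all 4 others, and the U87MGL arrays lay within the range of the U87MG arrays. U87MGR against U87MGL gave a log2 fold change of -0.59 (SE 0.17, 95% interval -1.004 to -0.18), with a limma p of 0.0116 that became 0.374 after adjustment. U87MGR against U87MG gave -0.70 (SE 0.17, 95% interval -1.11 to -0.28), with a limma p of 0.00526 that became 0.0811. As ratios, these means were 1.51-fold and 1.62-fold lower in U87MGR. U87MGL against U87MG gave -0.10 (95% interval -0.52 to 0.31, limma adjusted p = 0.758). Between arrays of the same spike-in group the difference was about as large, at -0.60 for U87MGR replicate 1 against the U87MGL arrays and -0.86 for U87MGR replicate 2 against U87MG replicate 1. Of the 3 WWTR1 probe sets, all gave values below 0 for U87MGR against U87MGL, between -0.59 and -0.23. For U87MGR against U87MG the 3 probe sets gave -0.70, -0.69 and 0.22, so the dimmest of them went the other way, and the mean of the 3 gave -0.39.

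TEAD1, a factor that carries YAP1 and WWTR1 to DNA, had log2 signals of 10.54 and 10.92 in U87MGR, 10.56 and 10.71 in U87MGL, and 10.01 and 10.36 in U87MG. All 4 derivative arrays lay above both U87MG arrays, and the derivatives overlapped each other. The log2 fold change was 0.54 for U87MGR against U87MG (SE 0.20, 95% interval 0.06 to 1.02), with a limma p of 0.0324 that became 0.195 after adjustment. It was 0.45 for U87MGL against U87MG (95% interval -0.03 to 0.93, limma adjusted p = 0.241) and 0.09 for U87MGR against U87MGL (95% interval -0.39 to 0.57, limma adjusted p = 0.929). All 3 TEAD1 probe sets gave values above 0 against U87MG, between 0.32 and 0.54 for U87MGR and between 0.16 and 0.49 for U87MGL. The size depended on single arrays: U87MGR against U87MG gave 0.35 without U87MGR replicate 2, 0.37 without U87MG replicate 1 and 0.91 within a spike-in group. For U87MGL against U87MG it was 0.27 without U87MG replicate 1 and 1.01 with 3 spike-in groups as a block. Within a spike-in group the difference between the derivatives was -0.10.

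TEAD4, another TEAD factor, had log2 signals of 8.52 and 8.92 in U87MGR, 8.68 and 8.63 in U87MGL, and 8.55 and 8.28 in U87MG. The U87MGR arrays spanned the U87MGL arrays and reached down into the U87MG range. The log2 fold change was 0.30 for U87MGR against U87MG (95% interval -0.15 to 0.76, limma adjusted p = 0.423). It was 0.24 for U87MGL against U87MG (95% interval -0.22 to 0.69, limma adjusted p = 0.500). On this probe set no neighbouring pair in the order U87MGR, U87MGL, U87MG differed beyond its spread. A second TEAD4 probe set gave -0.26 between the derivatives, with the U87MGR arrays below the U87MGL arrays, 0.20 for U87MGR against the parental line and 0.46 for U87MGL against it. With every probe set tested on its own, that last value had SE 0.17 and a limma p of 0.0277 that became 0.175 after adjustment. On the brightest probe set, U87MGR against U87MG gave 0.10 without U87MGR replicate 2, 0.17 without U87MG replicate 2 and 0.50 without U87MGR replicate 1. For U87MGL against U87MG the values were 0.10 without U87MG replicate 2, 0.37 without U87MG replicate 1 and 0.63 with 2 spike-in groups as a block. Within a spike-in group, U87MGR stood 0.36 above U87MG and the difference between the derivatives was -0.13.

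LATS2, the kinase that phosphorylates YAP1 and WWTR1 and is itself a reported YAP target, had log2 signals of 8.86 and 9.35 in U87MGR, 8.92 and 9.25 in U87MGL, and 8.71 and 8.59 in U87MG. Both derivatives lay above U87MG on every array and overlapped each other. The log2 fold change was 0.46 for U87MGR against U87MG (95% interval -0.05 to 0.97, limma adjusted p = 0.286) and 0.44 for U87MGL against U87MG (95% interval -0.07 to 0.94, limma adjusted p = 0.275). U87MGR against U87MG gave 0.21 without U87MGR replicate 2, 0.70 without U87MGR replicate 1 and 0.65 within a spike-in group. The value for U87MGL was 0.27 without U87MGL replicate 2 and 0.93 with 2 spike-in groups as a block. Within a spike-in group the difference between the derivatives was -0.23. The 4 LATS2 probe sets disagreed. The second brightest had log2 signals of 9.14 and 8.98 in U87MGR, 9.33 and 9.33 in U87MGL, and 7.82 and 8.47 in U87MG, which is 0.91 and 1.18 log2 units above U87MG. Its limma adjusted p, with every probe set tested on its own, was 0.110 for U87MGR and 0.0549 for U87MGL. The third gave -0.45 for U87MGR and -0.12 for U87MGL against the parental line, and the dimmest lay below the signal filter. With every probe set tested on its own, AMOTL2 in U87MGL against U87MG was the only call among these genes. Over all 27364 probe sets tested that way, 0.0658% were called between the derivatives, 1.24% for U87MGR against the parental line and 2.60% for U87MGL against it.

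AMOTL2, a junction protein of the angiomotin family that binds YAP1 and restrains it, is also a reported YAP target. Its log2 signals were 9.31 and 9.46 in U87MGR, 9.62 and 9.38 in U87MGL, and 8.50 and 8.45 in U87MG. All 4 derivative arrays stood clear of both U87MG arrays, with a gap wider than the spread within any line. U87MGR against U87MG gave a log2 fold change of 0.91 (SE 0.16, 95% interval 0.53 to 1.30, limma adjusted p = 0.0371). U87MGL against U87MG gave 1.02 (SE 0.16, 95% interval 0.64 to 1.41, limma adjusted p = 0.0230). U87MGR against U87MGL gave -0.11 (95% interval -0.50 to 0.27, limma adjusted p = 0.878), and these arrays overlapped. Unlike CCN1 and CCN2 below, AMOTL2 differed by only 0.06 between the U87MG arrays, and between arrays of the same spike-in group U87MGR replicate 2 was 0.96 above U87MG replicate 1. Within such a group the difference between the derivatives was -0.19. The rise rested on 1 probe set and stayed called in only 7 of 16 alternative fits for U87MGR and 8 of 16 for U87MGL. Its sign was the same in all 16, which adds little. Several fits cannot move the estimate, and leaving out 1 of these non-overlapping arrays cannot change its sign. Among the 6 fits that leave out 1 array, the calls remained only without U87MG replicate 1. The other such fits gave limma adjusted p-values of 0.0742 to 0.201 for U87MGR and 0.0552 to 0.141 for U87MGL.

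**Figure D2:**
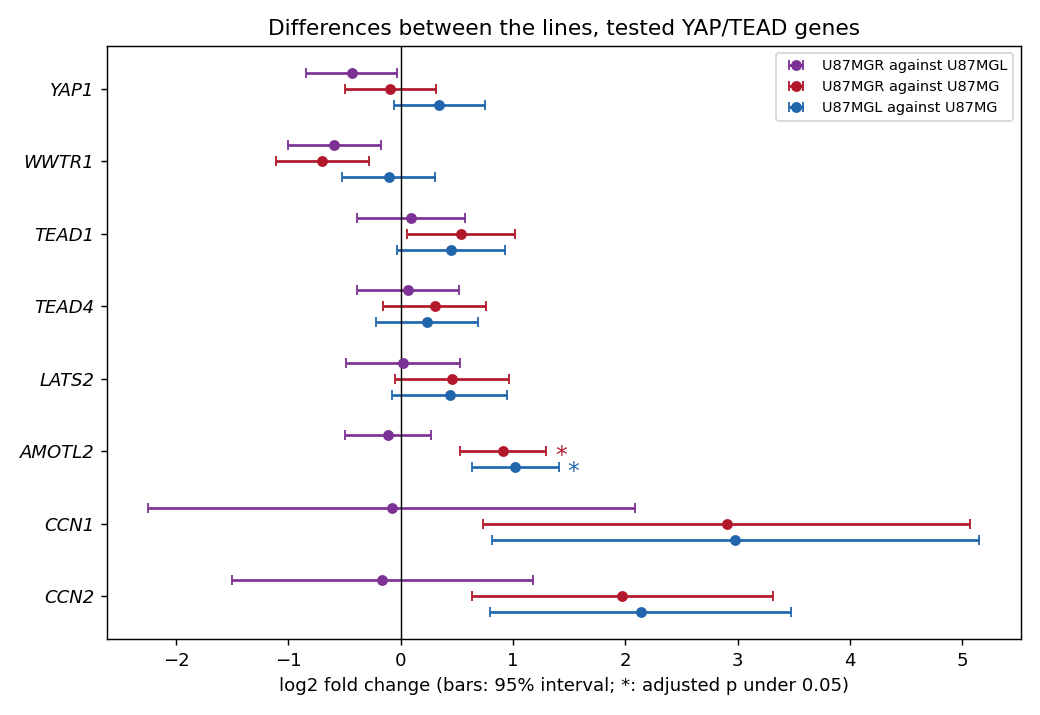
Points give the log2 fold change of each tested YAP/TEAD gene on the horizontal axis and bars its 95% interval from the limma model, with U87MGR against U87MGL uppermost within each gene, U87MGR against the parental line in the middle and U87MGL against it lowest, and an asterisk marks an adjusted p under 0.05. Only AMOTL2 carries asterisks, at 0.91 and 1.02, while the CCN1 and CCN2 points lie further right with intervals several times as wide.

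CCN1, a secreted matrix protein of the CCN family and a standard readout of YAP activity, had log2 signals of 10.03 and 10.73 in U87MGR, 10.22 and 10.70 in U87MGL, and 9.13 and 5.83 in U87MG. All 4 derivative arrays were above both U87MG arrays, and the U87MG arrays were themselves the farthest apart. U87MGR against U87MG gave a log2 fold change of 2.90 (SE 0.92, 95% interval 0.74 to 5.07), a 7.48-fold higher mean, with a limma p of 0.0157 that became 0.136 after adjustment. U87MGL against U87MG gave 2.98 (95% interval 0.81 to 5.15), a 7.90-fold higher mean, with a limma adjusted p of 0.116. Neither was called. U87MGR against U87MGL gave -0.08 (95% interval -2.25 to 2.09, limma adjusted p = 0.989), an interval too wide to exclude a several-fold difference either way. Its width comes from a spread shared by all 3 groups, to which the U87MG arrays gave most. Their SD was 2.33, against 0.49 in U87MGR and 0.34 in U87MGL. A second CCN1 probe set had signals of 8.998 and 9.83 in U87MGR, 8.94 and 9.72 in U87MGL, and 8.20 and 6.47 in U87MG, and gave 2.07 and 1.99 against U87MG.

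CCN2, or CTGF, the matrix protein most often used beside CCN1 as a YAP readout, had log2 signals of 10.26 and 10.38 in U87MGR, 10.17 and 10.80 in U87MGL, and 9.32 and 7.37 in U87MG. Its pattern was that of CCN1, with a smaller gap between the U87MG arrays. U87MGR against U87MG gave a log2 fold change of 1.97 (SE 0.57, 95% interval 0.63 to 3.31), a 3.93-fold higher mean, with a limma p of 0.0102 that became 0.109 after adjustment. U87MGL against U87MG gave 2.14 (95% interval 0.80 to 3.48), a 4.40-fold higher mean, with a limma adjusted p of 0.0826. U87MGR against U87MGL gave -0.16 (95% interval -1.50 to 1.17, limma adjusted p = 0.955). Here too the shared spread came mostly from U87MG, with an SD of 1.39, against 0.09 in U87MGR and 0.44 in U87MGL.

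The U87MG arrays decided how large the CCN1 and CCN2 differences were. Replicate 1 minus replicate 2 was 3.30 for CCN1 in U87MG, rank 3 of 14513 genes by size, and 1.96 for CCN2, rank 32. The same difference for CCN1 was -0.70 in U87MGR (rank 692) and -0.49 in U87MGL (rank 942), and for CCN2 -0.12 in U87MGR (rank 9590) and -0.63 in U87MGL (rank 500). The SD of replicate differences over all genes was 0.345 in U87MGR, 0.282 in U87MGL and 0.451 in U87MG. Neither derivative showed a split of the size of that in U87MG for these genes. Without U87MG replicate 2, CCN1 was 1.26 higher in U87MGR and 1.33 higher in U87MGL than in U87MG (limma adjusted p = 0.122 and 0.109). Without U87MG replicate 1, the same values were 4.55 and 4.63, and both were called (limma adjusted p = 0.0127 and 0.00879). CCN2 was 0.99 higher in U87MGR and 1.16 higher in U87MGL without U87MG replicate 2 (limma adjusted p = 0.126 and 0.0930). Without U87MG replicate 1 it was 2.95 and 3.12 higher, and both were called (limma adjusted p = 0.0193 and 0.0110). In each of these fits the lone U87MG array is assumed to vary like the other groups. Between arrays of the same spike-in group, U87MGR replicate 2 stood above U87MG replicate 1 by 1.61 for CCN1 and 1.06 for CCN2. Within such a group the difference between the derivatives was -0.43 for CCN1 and -0.23 for CCN2. U87MG replicate 2 was also the array that stood alone in the spike-in controls, and its part in the CCN1 and CCN2 values was not tested beyond leaving it out. On the brightest probe sets of the other 6 tested genes, this difference between the U87MG arrays lay between -0.35 (TEAD1) and 0.35 (WWTR1). It was 0.06 for AMOTL2 and 0.12 for LATS2. Dimmer probe sets could be split more, with the higher signal in U87MG replicate 2. The second LATS2 probe set had 7.82 and 8.47 in U87MG replicates 1 and 2, and the second TEAD1 probe set 5.59 and 6.68.

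**Figure D3:**
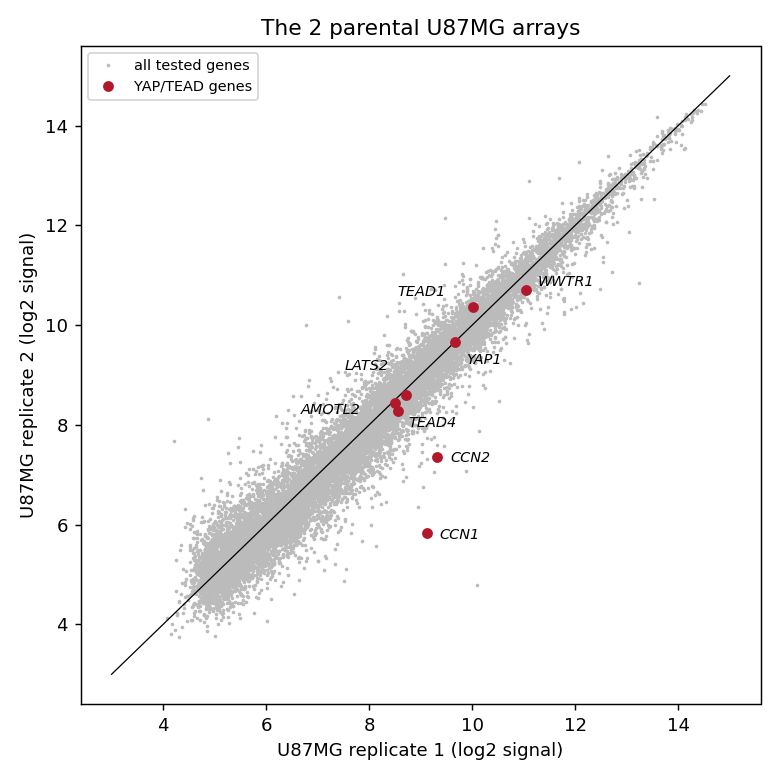
Each point is a tested gene, with its log2 signal in U87MG replicate 1 on the horizontal axis and in U87MG replicate 2 on the vertical axis, and the line marks equal signal. CCN1 (9.13 and 5.83) and CCN2 (9.32 and 7.37) lie far below the line, while the other YAP/TEAD genes lie close to it.

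ANKRD1, a nuclear repeat protein and YAP target of muscle and other adherent cells, had log2 signals of 3.17 and 3.25 in U87MGR, 3.31 and 3.43 in U87MGL, and 3.30 and 3.53 in U87MG. All 6 values lay below the filter of 4.73, so ANKRD1 was not tested, and its differences are given as values only: -0.15 between the derivatives, -0.20 for U87MGR against the parental line and -0.05 for U87MGL against it.

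**Figure D4:**
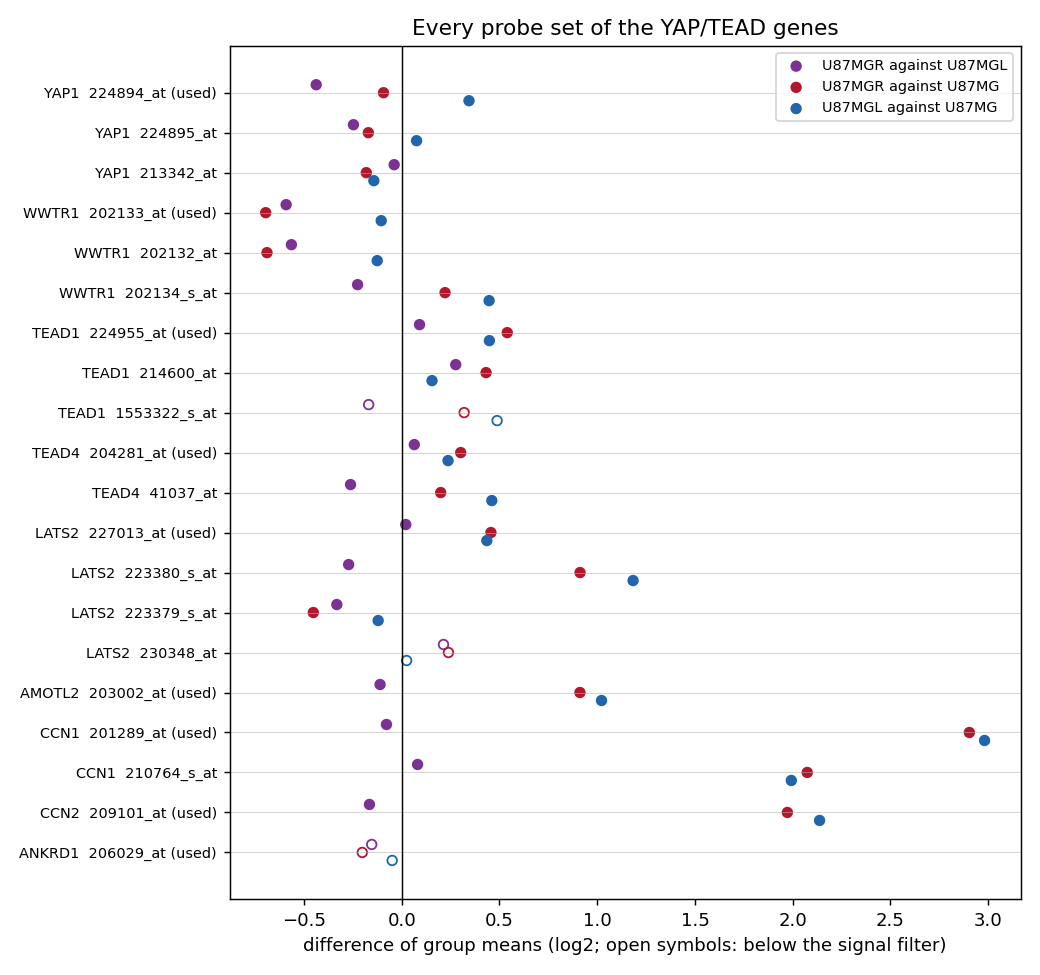
For each of the 20 probe sets of the YAP/TEAD genes, the difference of group means in log2 units is plotted on the horizontal axis, in a colour for each of the 3 comparisons, with open symbols for probe sets below the signal filter and the word used beside the brightest probe set of a gene. The 4 LATS2 probe sets range from -0.45 to 0.91 for U87MGR against U87MG, while both CCN1 probe sets lie near 2 or above against U87MG.

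TEAD factors recognise the letters CATTCC, or GGAATG on the other strand. Promoter windows of 250 bases before and 50 after the annotated start were held for 6 of the genes (8 windows, RefSeq, GRCh38.p14), namely YAP1, WWTR1, LATS2, CCN2, ANKRD1 and AMOTL2, and were searched for CATTCC on both strands. At least 1 copy was found in 5 of the 8 windows and 5 of the 6 genes, all but WWTR1. Over all 34943 RefSeq windows of the same 300 bases, 14.0% held at least 1 copy, 1.37% at least 2 and 0.126% at least 3. CCN2 had 3 copies, with first bases 169, 104 and 95 bases before the start, and ANKRD1 had 2, at 220 and 128 bases before it. AMOTL2 had 1 copy in 1 of its 2 windows, 69 bases before the start, and YAP1 and LATS2 had 1 each. A match of letters does not show binding, and no factor binding was measured here. The 250 bases before the start are printed for AMOTL2 (the window with the match), which rose in both derivatives, for CCN2, which had the most copies, and for ANKRD1, which had 2 copies and no signal above the filter. They run 5′ to 3′ on the gene's strand, the minus strand in all 3, at chr3:134374448-134374697 for AMOTL2, chr6:131951373-131951622 for CCN2 and chr10:90921088-90921337 for ANKRD1, with the matches in capitals:
AMOTL2: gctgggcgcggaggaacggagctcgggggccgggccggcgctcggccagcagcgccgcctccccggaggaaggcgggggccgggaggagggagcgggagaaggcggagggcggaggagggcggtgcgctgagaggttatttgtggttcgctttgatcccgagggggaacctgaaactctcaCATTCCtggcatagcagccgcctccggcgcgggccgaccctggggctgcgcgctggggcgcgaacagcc
CCN2: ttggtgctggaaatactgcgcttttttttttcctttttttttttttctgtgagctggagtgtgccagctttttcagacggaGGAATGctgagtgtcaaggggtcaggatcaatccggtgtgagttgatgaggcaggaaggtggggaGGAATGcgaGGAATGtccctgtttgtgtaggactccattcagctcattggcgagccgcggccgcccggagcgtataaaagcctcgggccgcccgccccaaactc
ANKRD1: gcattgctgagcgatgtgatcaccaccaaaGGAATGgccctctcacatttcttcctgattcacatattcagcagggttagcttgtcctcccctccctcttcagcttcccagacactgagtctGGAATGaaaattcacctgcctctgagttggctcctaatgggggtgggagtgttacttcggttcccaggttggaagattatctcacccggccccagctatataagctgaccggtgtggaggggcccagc

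In the AMOTL2 run above there is a single capital block in its 3′ part, whereas CCN2 shows 3 blocks, the last 2 separated by only a few bases. ANKRD1, with 2 copies, was the one gene of the 9 below the signal filter, whereas CCN2 and AMOTL2 were above it on all 6 arrays.

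The other genes of the pathway were read from lists of textbook members. The counts of each list below stand against these shares of all tested genes. With an unadjusted limma p under 0.05, 3.91% were higher and 4.94% lower between the derivatives. The shares were 11.0% and 9.78% for U87MGR against the parental line, and 13.2% and 10.1% for U87MGL against it. Called shares in the same order were 0.0413% and 0.117%, 1.86% and 1.44%, and 3.02% and 1.80%. Among 6 tested TEAD factors and TEAD cofactors, 0 were called in any comparison by limma with all 6 arrays, which did not hold without U87MG replicate 1. Of these 6, the counts with an unadjusted limma p under 0.05 were 1 higher and 0 lower between the derivatives, 0 and 1 for U87MGR against the parental line, and 1 and 3 for U87MGL against it. Their medians in the same order were 0.07, -0.40 and -0.33, and the first turned to -0.15 with averaged probe sets, -0.30 with a stricter signal filter and -0.03 without U87MGR replicate 1. The second came to -0.24 when U87MG replicate 1 was left out and to -0.23 when replicate 2 was. The largest differences were those of U87MGL against U87MG in the vestigial-like cofactors VGLL3, at -0.81 (SE 0.19, limma adjusted p = 0.0594), and VGLL4, which competes with YAP1 for TEAD, at 0.73 (SE 0.19, limma adjusted p = 0.0810). For U87MGR against U87MG, TEAD2 gave -0.63 and TEAD3 -0.46, neither called. Both values leaned on 1 U87MG array. TEAD2 had signals of 5.63 and 5.76 in U87MGR and 5.85 and 6.80 in U87MG. TEAD3 had 5.89 and 5.91 in U87MGR and 6.64 and 6.09 in U87MG.

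Of 10 kinases and adaptors at the core of the Hippo cascade, 0 were called in any comparison, with unadjusted limma counts of 1 higher and 1 lower between the derivatives, 0 and 2 for U87MGR against the parental line, and 1 and 0 for U87MGL against it. Their medians in the same order were -0.04, -0.14 and -0.02, and none kept its sign in every fit. The median for U87MGR against the parental line turned to 0.23 with averaged probe sets, 0.12 with 3 spike-in groups as a block and 0.06 without U87MG replicate 2, and was -0.25 without U87MG replicate 1. That for U87MGL against it ranged from -0.19 without U87MG replicate 1 to 0.08 without U87MG replicate 2, and that between the derivatives from -0.15 with averaged probe sets to 0.0071 with quantile normalization added. The largest values for U87MGR against U87MG were -0.74 for MAP4K4 (limma adjusted p = 0.0897), a kinase that acts on LATS1 and LATS2, and -0.51 for LATS1 (limma adjusted p = 0.157). LATS1 also gave -0.52 for U87MGR against U87MGL (limma adjusted p = 0.439).

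Of 13 upstream and junction regulators of YAP1, 11 were tested. In U87MGL against U87MG, 3 were called higher and 0 lower by limma, against 3.02% and 1.80% of all tested genes. FAT4, an atypical cadherin related to the fly Hippo regulator Fat, had log2 signals of 6.47 and 6.79 in U87MGR, 7.45 and 6.85 in U87MGL, and 5.61 and 5.95 in U87MG, and rose by 1.37 in U87MGL against U87MG (SE 0.25, limma adjusted p = 0.0313). AJUBA, a LIM protein that holds LATS kinases at junctions, had 8.67 and 8.11 in U87MGR, 9.25 and 8.82 in U87MGL, and 7.89 and 7.75 in U87MG, and rose by 1.21 (SE 0.24, limma adjusted p = 0.0391). FRMD6, or Willin, a membrane-linked activator of the cascade, had 9.60 and 9.29 in U87MGR, 10.26 and 10.16 in U87MGL, and 9.17 and 9.17 in U87MG, and rose by 1.04 (SE 0.17, limma adjusted p = 0.0234). For all 3 genes the U87MGR arrays lay between U87MG and the higher U87MGL array. In U87MGR against U87MG 0 of the 11 were called by limma, with 4 higher and 0 lower unadjusted, and in U87MGR against U87MGL 0 were called, with 2 higher and 3 lower unadjusted. The largest values of U87MGR against U87MGL were 0.93 for PTPN14, a phosphatase that binds YAP1, and -0.77 for FRMD6 (limma adjusted p = 0.392 and 0.202). The count of 3 fell to 2 without U87MG replicate 1, to 1 without either U87MGR array, and to 0 without U87MG replicate 2 or either U87MGL array. It was 1 with only the 4 arrays compared and 0 with 2 or 3 spike-in groups as a block. With these blocks AJUBA gave 0.66 and 0.59 (limma adjusted p = 0.678 and 0.486), FRMD6 0.73 in both (limma adjusted p = 0.525 and 0.265) and FAT4 1.69 and 1.85 (limma adjusted p = 0.423 and 0.203).

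Of 19 other reported YAP/TEAD targets, 16 were tested, with medians of -0.05 between the derivatives, 0.26 for U87MGR against the parental line and 0.36 for U87MGL against it. The median for U87MGR against the parental line dropped to 0.02 without U87MG replicate 2 and to 0.08 with 3 spike-in groups as a block. The median between the derivatives turned to 0.07 without U87MGR replicate 1 and to 0.01 with quantile normalization added. RBMS3 was the only gene of the list called higher in U87MGR against U87MG. In U87MGL against U87MG, RBMS3, CRIM1 and THBS1, 3 of the 16, were called higher, with 0 called lower in either comparison. RBMS3, an RNA-binding protein, had log2 signals of 7.28 and 7.79 in U87MGR, 7.59 and 7.60 in U87MGL, and 5.15 and 5.04 in U87MG. Its log2 fold change was 2.44 for U87MGR against U87MG (SE 0.20, limma adjusted p = 0.00949) and 2.50 for U87MGL against U87MG (SE 0.20, limma adjusted p = 0.00525). The U87MG arrays agreed for RBMS3 within 0.11, but with the mean of all its probe sets the values were 0.99 and 0.93 (limma adjusted p = 0.0361 and 0.0334), so its probe sets differed in size. Without U87MGR replicate 2, RBMS3 was no longer called in U87MGR against U87MG (limma adjusted p = 0.104), while with 2 and 3 spike-in groups as a block it was (limma adjusted p = 0.0443 and 0.0319), and within a spike-in group it stood 2.65 higher. In U87MGL against U87MG it was called in all 6 fits that leave out 1 array and not called with either block (limma adjusted p = 0.125 and 0.0936).

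CRIM1, a membrane protein that binds growth factors, had log2 signals of 10.86 and 9.98 in U87MGR, 11.28 and 10.96 in U87MGL, and 9.06 and 9.72 in U87MG. It rose by 1.72 in U87MGL against U87MG (SE 0.34, limma adjusted p = 0.0387), a call lost in each of the 6 fits that leave out 1 array and with the replicate block (limma adjusted p = 0.0520). With 2 spike-in groups as a block CRIM1 gave 0.85 (limma adjusted p = 0.681). THBS1, thrombospondin, had 5.88 and 6.05 in U87MGR, 6.74 and 6.66 in U87MGL, and 5.93 and 5.69 in U87MG, and rose by 0.89 in U87MGL against U87MG (SE 0.16, limma adjusted p = 0.0334). The U87MGR arrays of THBS1 stayed near those of U87MG. The THBS1 call held without U87MG replicate 1 and was lost in the other 5 fits that leave out 1 array, with adjusted p-values of up to 0.195. It was also lost with the replicate block (limma adjusted p = 0.0506) and with 2 and 3 spike-in groups as a block (limma adjusted p = 0.432 and 0.208).

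AXL, the receptor tyrosine kinase whose gene is a reported YAP target, had log2 signals of 11.15 and 11.51 in U87MGR, 11.56 and 11.24 in U87MGL, and 11.34 and 11.33 in U87MG. All 3 groups overlapped. In U87MGR against U87MGL, 0 of the 16 targets were called by limma, with 0 higher and 2 lower unadjusted. The largest value there was -2.06 for IGFBP3, an insulin-like growth factor binding protein, with signals of 11.85 and 10.13 in U87MGR, 13.28 and 12.82 in U87MGL, and 13.24 and 10.84 in U87MG (limma adjusted p = 0.534). IGFBP3 and the coagulation factor gene F3 were also split between the U87MG arrays, replicate 1 minus replicate 2 being 2.40 and 2.29 (ranks 14 and 16 of 14513). In U87MGR the same differences were 1.72 for IGFBP3 and 1.35 for F3.

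**Figure D5:**
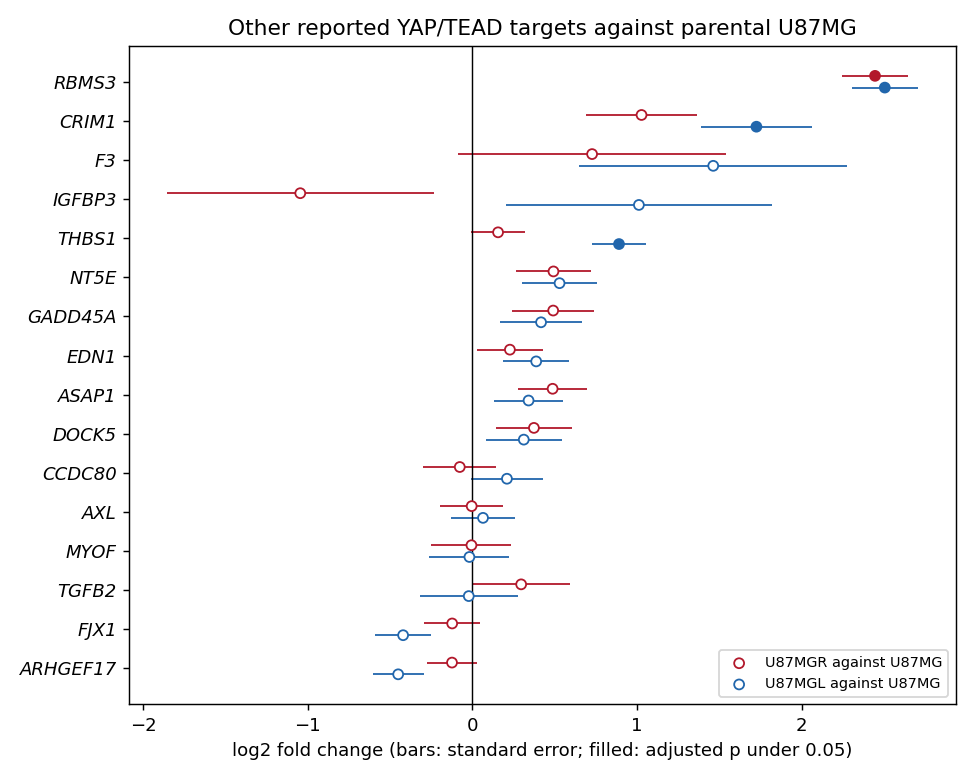
The log2 fold change of 16 other reported YAP/TEAD targets is plotted on the horizontal axis for U87MGR (upper point) and U87MGL (lower point) against the parental line, 1 gene per row, with bars for the standard error and filled symbols for an adjusted p under 0.05. RBMS3 is filled in both comparisons near 2.5, CRIM1 and THBS1 only in U87MGL against U87MG, and AXL lies near 0.

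Of 4 other CCN family genes, 1 was called lower in U87MGR against U87MG, and 0 were called by limma in the other comparisons. Unadjusted counts were 0 between the derivatives and 2 lower for U87MGL against the parental line. In U87MGL against U87MG, 1 gene of the list was called lower with only the 4 arrays compared, and 1 with the replicate block. Both U87MGR and both U87MGL arrays lay below the U87MG arrays for CCN4, known as WISP1 and as a Wnt target. Its log2 signals were 6.39 and 4.84 in U87MGR, 6.42 and 6.19 in U87MGL, and 8.66 and 7.97 in U87MG. The called fall was 2.70 in U87MGR against U87MG (SE 0.48, limma adjusted p = 0.0364). That call was lost in each of the 6 fits that leave out 1 array, with adjusted p-values between 0.0557 and 0.143. It was also lost with 2 spike-in groups as a block and kept with 3 (limma adjusted p = 0.0557 and 0.0313), and within a spike-in group the difference was -3.82. CCN5 gave -1.66 in U87MGR and -1.37 in U87MGL against the parental line (limma adjusted p = 0.0686 and 0.0946). Its log2 signals were 5.34 in U87MG replicate 1 and 6.58 in U87MG replicate 2, while both derivative means lay below the signal filter. CCN5 thus passed the filter through its U87MG signals, and the size of its fall and its part in the medians that follow are uncertain. The 4 genes had medians of -0.02 between the derivatives, -0.85 for U87MGR against the parental line and -0.84 for U87MGL against it, the last pair below 0 where CCN1 and CCN2 were above it. The first turned to 0.20 without U87MGR replicate 2, and without U87MG replicate 1 the other medians were -1.45 and -1.27. With averaged probe sets they were -1.66 and -1.31.

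Actin-linked targets of serum response factor, which answer some of the same mechanical signals, were read alongside. Of 11 tested, 0 were called in U87MGR against U87MGL and 0 in U87MGR against U87MG by limma, with unadjusted counts of 1 higher and 1 lower and of 1 higher and 0 lower. MYL9, a myosin light chain, fell by 1.54 in U87MGL against U87MG (SE 0.32, limma adjusted p = 0.0468), the only call of the list, and it was lost in each of the 6 fits that leave out 1 array and with the replicate block (limma adjusted p = 0.0560). With 2 and 3 spike-in groups as a block MYL9 gave -0.61 and -0.47 (limma adjusted p = 0.734 and 0.603). The medians were -0.03 between the derivatives, 0.11 for U87MGR against the parental line and 0.25 for U87MGL against it. The second turned to -0.08 without U87MG replicate 2, the first to 0.03 with quantile normalization added, and the third was 0.05 without U87MGL replicate 2 and 0.10 without U87MG replicate 2.

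Genes with the profile most like that of a YAP/TEAD gene were taken as the 3 with the smallest root mean square difference of mean-centred log2 signal over the 6 arrays, a description that shares its arrays with everything above. For CCN1 these were CCN2 (0.596), the small GTPase gene RHOB (0.597) and the Eph receptor gene EPHA2 (0.617), against an SD of 1.70 of the CCN1 profile itself. For CCN2 they were EPHA2 (0.276), CDCA2 (0.363) and MCM10 (0.377), against an SD of 1.14. EPHA2 had log2 signals of 8.66 and 8.95 in U87MGR, 8.65 and 9.31 in U87MGL, and 7.07 and 5.72 in U87MG, and so shared the low U87MG replicate 2. For AMOTL2 they were JPT1 (0.0794), CENPM (0.0988) and then NDUFB2-AS1, against an SD of 0.466. JPT1 had 10.61 and 10.85 in U87MGR, 10.93 and 10.89 in U87MGL, and 9.94 and 9.94 in U87MG, with no split between the U87MG arrays. No gene was shared between the lists of CCN1 and AMOTL2 or of CCN2 and AMOTL2. Lists of 3 genes, taken for profiles of such unlike SD, could hardly overlap, so nothing is concluded from this.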

How the data were processed

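Total RNA was labelled as biotinylated cRNA and measured on 6 single-colour arrays, per the labels' protocols. The deposited values are log2 signals of 54675 probe sets. The authors' normalization is not named in the labels or headers, and array medians of 5.29 to 5.35 lie close together. No further normalization was applied. Groups came from the titles and characteristics, 2 arrays each.

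Of the probe sets, 41097 carried 1 gene symbol in the probe table, 1801 several and 11777 none, and 41043 matched the RefSeq annotation of GRCh38.p14 by gene number. The brightest 1-symbol probe set stood for a gene. A filter at the 40th percentile of mean signal (4.73) left 14513 of 19775 genes to test. One limma model (limma 3.58.1, R 4.3.3) with a mean per group was fitted to the 6 arrays, with 3 residual and 4.05 prior degrees of freedom, and two-sided p-values were adjusted by Benjamini-Hochberg over all tested genes. The median SE of a log2 fold change was 0.19, limited by having 2 arrays per group. The procedure was tested on simulated data. Tables and figures were made with Python 3.11.15, pandas 2.3.3 and matplotlib 3.10.9.

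The genes and lists were chosen with earlier results of these data known. All YAP/TEAD genes are named. From each other list, called genes are named by size, up to 3 in each direction, and otherwise at most 2. AXL is added as the gene beside AXL-AS. TEAD1, TEAD4 and CCN1 were not among the promoter windows, no protein sequences were used here, and coordinates are those of RefSeq windows.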

Additional observations from a re-analysis of the deposited data

How the results depend on the processing

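With 2 arrays per line, calls depended on single arrays. For U87MGR against U87MGL, 0 YAP/TEAD genes were called in every fit, including each that leaves out 1 array. For U87MGR against U87MG the count of 1 became 0 with 2 spike-in groups as a block, 0 with 3 spike-in groups as a block (which leaves U87MG replicate 2 out), 0 with every probe set on its own, 0 with only the 4 arrays compared, and 0 with the replicate number as a block (AMOTL2, limma adjusted p = 0.0559). For U87MGL against U87MG the count of 1 became 0 with 2 or 3 spike-in groups as a block and 0 with only the 4 arrays compared, and stayed 1 with the replicate block (AMOTL2, limma adjusted p = 0.0387). Leaving out 1 array gave counts of 0 to 3 in both comparisons. Fits with every probe set on its own called 1 for U87MGL against U87MG. Deviations of same-numbered arrays from their group means had correlations of 0.01, 0.11 and -0.09 over all tested genes. Such a correlation cannot show a day or batch that acts on some genes only. Whether the replicate numbers pair the samples therefore stays undecided.

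Sign changes, each in a comparison where the gene was not called, were as follows. Between U87MGR and U87MGL, both spike-in blocks gave -0.101 for TEAD1, -0.1325 for TEAD4 and -0.2261 for LATS2. Averaging probe sets gave -0.0983 for TEAD4, -0.092 for LATS2 and 0.0020 for CCN1, and centring arrays gave -0.0153 for LATS2. Leaving out 1 array gave ranges of -0.101 to 0.284 for TEAD1, -0.1325 to 0.2619 for TEAD4, -0.2261 to 0.2679 for LATS2, -0.4274 to 0.2723 for CCN1, -0.4776 to 0.1482 for CCN2 and -0.2282 to 0.0075 for AMOTL2. Against U87MG, leaving out 1 array gave -0.265 to 0.0796 for YAP1 in U87MGR and -0.2784 to 0.0692 for WWTR1 in U87MGL. In U87MGL, YAP1 gave -0.000196 and -0.0066 with 2 and 3 spike-in groups as a block, and WWTR1 gave 0.0726 with averaged probe sets. Causes beyond the fewer arrays or other probe sets of each fit were not tested.

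Over all genes the number called ranged from 0 to 40 for U87MGR against U87MGL (23 as reported), from 1 to 877 for U87MGR against U87MG (479) and from 0 to 1550 for U87MGL against U87MG (699). U87MGL and U87MG share no spike-in group, so no value within a group exists for them.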

Other observations

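CCN1 and CCN2 were not the only genes split between the U87MG arrays: 518 tested genes differed by over 1 log2 unit there, against 200 in U87MGR and 145 in U87MGL. Differences over 3 were found for 6 genes in U87MG, 1 in U87MGR and 2 in U87MGL. Of the 11 tested upstream and junction regulators of YAP1, 10 had the higher signal in U87MG replicate 2, against 46.7% of all tested genes, with differences of -0.74 to 0.15 (replicate 1 minus replicate 2). Of the 10 Hippo kinases and adaptors, 8 did so. In U87MGR and U87MGL the same counts were 6 and 3 of 11, and 5 and 6 of 10, against 49.6% and 50.1% of all tested genes. These are descriptions of single arrays with no test.

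The 3′ minus 5′ signal of the actin control probe sets was 0.28 and 0.25 in U87MGR, 0.39 and 0.28 in U87MGL, and -0.01 and 0.22 in U87MG. For GAPDH it was 0.05 and 0.24 in U87MGR, 0.03 and 0.04 in U87MGL, and 0.06 and 0.07 in U87MG. U87MG replicate 1 was lowest for actin and U87MGR replicate 2 highest for GAPDH, and the part of either in the values above was not tested.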
